A study of Mus musculus with 10 samples.

Results

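The erythroblastic island macrophage genes described here are C1qa, C1qb, C1qc, Vcam1, Cd5l, Axl, Mertk, Apoe, Adgre1 and Spic, chosen by symbol from the count table of sorted erythroid cells. All 10 were among the 24421 genes listed, and all 10 were among the 11846 genes that passed the filter on low counts. RNA-seq had been carried out on R2 (CD71+Ter119+) erythroid progenitors sorted from the bone marrow of 10 transplanted mice, 1 library per mouse. The mice fell into 4 genotypes: Ddx41+/+ Trp53+/+ (3 mice, replicates 10, 11 and 12), Ddx41+/- Trp53+/+ (2 mice, 32 and 34), Ddx41+/+ Trp53+/- (3 mice, 22, 23 and 24) and Ddx41+/- Trp53+/- (2 mice, 46 and 47). The comparisons address how loss of 1 allele of Ddx41, a DEAD-box RNA helicase, and of 1 allele of Trp53, which encodes p53, alters progenitors after transplantation.

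The donor marrow carried Rosa-CreERT2 in every group, with a floxed Ddx41 allele, a Trp53 knockout allele, both or neither, and 1000000 marrow mononuclear cells were given to each lethally irradiated BoyJ recipient. Tamoxifen, which activates CreERT2, was injected at 1 mg in 2 rounds of 5 daily doses, and marrow was taken 8 weeks after the transplant. The Rosa26 locus is active in most cell types, so excision was not restricted to erythroid cells. Macrophages that survive irradiation in the recipient do not carry the donor alleles, and whether the macrophage transcripts came from host or donor cells was not measured. The ages of the mice are not given in the sources used here. Libraries held 7866648 to 20283930 counts.

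In the marrow, erythroblasts mature around a central macrophage, and the cells together form an erythroblastic island. The macrophage holds erythroblasts through adhesion molecules, supplies iron and growth signals, and engulfs the nuclei that maturing red cells expel. Adhesion is close enough that fragments of the macrophage can stay on erythroblasts when marrow is dissociated. C1qa, C1qb and C1qc encode the chains of complement C1q, Vcam1 the adhesion molecule that binds integrin on erythroblasts, Axl and Mertk receptor tyrosine kinases for uptake of apoptotic cells, and Spic the transcription factor of iron-recycling macrophages.

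The identity of the sorted cells was checked first. The 10 erythroid markers summed to 43474 to 49362 CPM (counts scaled to a common library size of 1000000), led by Slc4a1, the band 3 anion exchanger, at a mean of 27928 CPM. Of these markers, Hbb-bt had no count and Hba-a1 lay at 0.105 to 1.28 CPM, both being globin genes with near-identical copies. The 10 macrophage genes summed to 298 to 721 CPM, or 0.0294% to 0.0728% of a library's counts. Ddx41 was at 21.9 to 26.6 CPM in the 6 Ddx41+/+ mice and 12.5 to 16.5 CPM in the 4 Ddx41+/- mice. Trp53 was at 57.4 to 68.1 CPM in the 5 Trp53+/+ mice and 40.3 to 46.2 CPM in the 5 Trp53+/- mice, so both genes followed the labels. In these bulk libraries, fewer macrophages or macrophage fragments and less RNA per macrophage cannot be told apart.

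C1qa, C1qb and C1qc lay side by side within 18675 bases at chr4:136880129-136898803 on GRCm38, all on the minus strand, with no other annotated gene between them. Promoter windows of the 250 bases before the start site are given because the members moved together between mice. RefSeq windows on GRCm38.p6 were matched for 7 members, C1qb, C1qc, Cd5l, Axl, Mertk, Apoe and Spic. The ETS motif GAGGAA, or its reverse complement TTCCTC, is the kind of site that PU.1 and Spi-C bind. Windows are printed 5′ to 3′, with the motif in capitals, for C1qb, Cd5l and Axl. These printed windows held 0 bases of the gene's own annotated exons. They lie at chr4:136886201-136886450 (minus strand), chr3:87357631-87357880 (plus strand) and chr7:25788734-25788983 (minus strand). C1qc and Apoe also held the motif outside their own annotated exons, and their windows are not printed. Exons of other genes were not checked.
C1qb: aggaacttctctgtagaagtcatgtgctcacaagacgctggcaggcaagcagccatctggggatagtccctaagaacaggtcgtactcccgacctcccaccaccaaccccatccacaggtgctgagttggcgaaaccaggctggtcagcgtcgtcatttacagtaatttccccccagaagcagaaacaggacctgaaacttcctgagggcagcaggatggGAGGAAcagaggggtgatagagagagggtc
Cd5l: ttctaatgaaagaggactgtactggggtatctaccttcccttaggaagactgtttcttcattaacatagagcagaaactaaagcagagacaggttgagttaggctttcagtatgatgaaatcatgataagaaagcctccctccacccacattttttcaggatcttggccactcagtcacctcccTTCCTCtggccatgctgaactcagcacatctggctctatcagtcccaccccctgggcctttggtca
Axl: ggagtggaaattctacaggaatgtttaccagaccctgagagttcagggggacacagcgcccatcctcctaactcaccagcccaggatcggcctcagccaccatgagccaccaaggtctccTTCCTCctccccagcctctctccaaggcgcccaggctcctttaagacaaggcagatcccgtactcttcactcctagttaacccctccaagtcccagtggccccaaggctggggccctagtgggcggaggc

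The ETS motif was present in 5 of the 7 members with a window (C1qb, C1qc, Cd5l, Axl and Apoe). Apoe had 3 start sites, so the members had 9 windows, of which 6 held the motif, against 23.3% of all 32851 windows of the same length. Its first base on the plus strand of the gene lay 30 bases before the start site in C1qb, 66 in Cd5l and 130 in Axl. Other motifs searched on both strands were the MAF motif TGCTGA in 3 of the 9 windows against 16.1% of all windows, the AP-1 motif TGANTCA in 0 of 9 against 6.75%, and the CACC box CCACCC in 5 of 9 against 28.1%. None of the MAF or CACC matches in the 3 printed windows overlapped the ETS match. These matches are descriptions of letters in a window and were not tested for binding.

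Apoe, the apolipoprotein that macrophages secrete with cholesterol, had the highest level of the members (chr7:19696109-19699188). It was at 258, 123 and 224 CPM in Ddx41+/+ Trp53+/+ mice 10, 11 and 12, and at 149 and 188 CPM in Ddx41+/- Trp53+/+ mice 32 and 34. Values were 139, 132 and 93.4 CPM in Ddx41+/+ Trp53+/- mice 22, 23 and 24, and 202 and 164 CPM in Ddx41+/- Trp53+/- mice 46 and 47. The wild-type mice thus held both the highest value of all and the second lowest, and the Ddx41+/+ Trp53+/- mice lay below both double heterozygotes.

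The C1q chains showed a similar pattern. In the same order of mice, C1qa (chr4:136895917-136898803) was at 62.3, 28.6 and 47.2 CPM in the wild type, 42.6 and 62.2 CPM in Ddx41+/- Trp53+/+, 36.7, 29.2 and 27.6 CPM in Ddx41+/+ Trp53+/- and 60.8 and 42.3 CPM in the double heterozygotes. C1qb (chr4:136880129-136886187) was at 57.9, 27.8 and 42.1 CPM, 35.7 and 56.9 CPM, 32.3, 30.4 and 23.7 CPM, and 47.7 and 34.7 CPM. C1qc (chr4:136889804-136893065) was at 69.3, 33.2 and 57.4 CPM, 41.7 and 58.3 CPM, 42.5, 30.0 and 28.3 CPM, and 53.4 and 42.0 CPM. Each chain was highest in wild-type mouse 10 and lowest in Ddx41+/+ Trp53+/- mouse 24. C1q is assembled from equal numbers of the 3 chains, and the count ratio of C1qa to C1qb varied only from 0.959 to 1.28 over the 10 mice, while C1qb itself varied 2.44-fold.

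Vcam1 lay at chr3:116109949-116129688 and overlapped Gm43109 on the opposite strand. It was at 98.0, 52.3 and 110 CPM in the wild type, 62.8 and 86.2 CPM in Ddx41+/- Trp53+/+, 65.7, 47.9 and 43.9 CPM in Ddx41+/+ Trp53+/-, and 97.0 and 77.7 CPM in the double heterozygotes. Both double heterozygotes were above all 3 Ddx41+/+ Trp53+/- mice. Adgre1 (chr17:57358691-57483527), which encodes the F4/80 antigen used to recognise mouse macrophages, was at 35.4, 17.3 and 35.1 CPM, 24.6 and 27.2 CPM, 21.8, 21.4 and 16.5 CPM, and 29.2 and 23.2 CPM in the same order. Cd5l (chr3:87357881-87371073), a secreted scavenger protein of tissue macrophages, was at 26.6, 14.3 and 35.4 CPM, 20.7 and 30.7 CPM, 19.1, 16.3 and 13.4 CPM, and 26.7 and 25.5 CPM. Wild-type mouse 11 lay below the other two wild-type mice for each of these genes.

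The receptors for uptake of apoptotic cells differed in level. Axl (chr7:25757273-25788705) was at 99.6, 49.9 and 104 CPM in the wild type, 69.5 and 95.9 CPM in Ddx41+/- Trp53+/+, 63.0, 52.5 and 43.5 CPM in Ddx41+/+ Trp53+/-, and 95.2 and 71.7 CPM in the double heterozygotes. Mertk (chr2:128698956-128802894, overlapping Gm23172 on the same strand and Gm14011 on the other) was at 8.12, 2.53 and 4.98 CPM, 4.93 and 4.19 CPM, 3.80, 3.46 and 2.50 CPM, and 3.43 and 4.37 CPM, from 33 to 154 counts. The Axl to Mertk count ratio ranged from 12.3 to 27.8, and Mertk was the only member for which double heterozygote 46 ranked among the lowest 3 mice. Axl stayed close to Vcam1, with a Vcam1 to Axl count ratio of 0.899 to 1.08.

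Spic (chr10:88674772-88685015) was at 6.06, 5.78 and 9.06 CPM in the wild type, 4.99 and 7.11 CPM in Ddx41+/- Trp53+/+, 7.30, 4.08 and 5.36 CPM in Ddx41+/+ Trp53+/-, and 8.08 and 6.34 CPM in the double heterozygotes, from 56 to 139 counts. Its order of mice differed from that of the other members. Wild-type mouse 10, highest for 6 members, ranked only sixth for Spic, and the lowest mouse was 23 in place of 24.

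**Figure D1:**
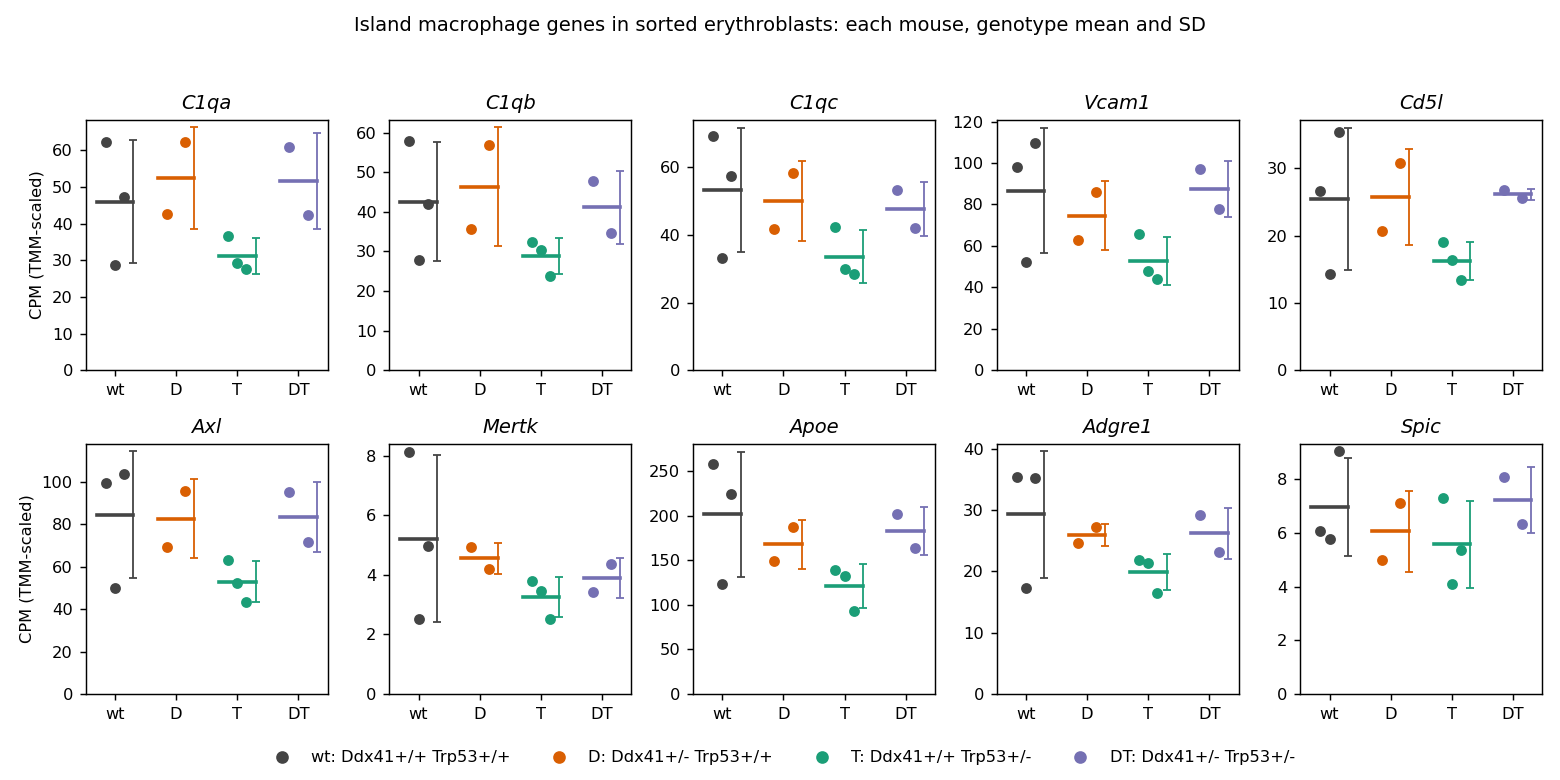
Level of each of the 10 macrophage genes in CPM (vertical axis from 0) in each mouse (points) by genotype, with the genotype mean (bar) and SD (whisker, n = 3, 2, 3 and 2 mice). The Ddx41+/+ Trp53+/- mice had the lowest mean for every gene, and the wild-type mice had a wide spread, from 123 to 258 CPM for Apoe.

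Per length of annotated exon, the order of mean levels over the 10 mice was Apoe at 78.2 ± 23.6 CPM per kb (SD, n = 10), C1qa at 42.3 ± 13.4, C1qb at 35.8 ± 10.9, C1qc at 23.6 ± 7.02, Axl at 14.8 ± 4.49, Cd5l at 11.2 ± 3.59, Vcam1 at 8.36 ± 2.60, Adgre1 at 7.77 ± 2.03, Spic at 1.67 ± 0.390 and Mertk at 0.976 ± 0.373. Each gene was above the next in all 10 mice, except Vcam1 over Adgre1 (7 mice) and Spic over Mertk (9 mice). On this length Vcam1 and Adgre1 did not differ beyond their spread. With the longest transcript in place of the exon union, C1qc moved to place 3 and Vcam1 to place 5. There Vcam1, at a mean of 18.1 CPM per kb, was above Adgre1, at 7.77 CPM per kb, in all 10 mice. The longest annotated Vcam1 transcript has 4088 bases in 1 exon, and its exon union has 8870 bases. The place of Vcam1 thus depends on the annotation.

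The 10 genes went up and down together from mouse to mouse. Centred on each gene's mean, the mean log2 CPM of the 10 genes was 0.53 in wild-type mouse 10, 0.44 in mouse 12 and -0.46 in mouse 11, a gap within 1 genotype that was wider than any between genotype means. In the Ddx41+/- Trp53+/+ mice it was -0.05 and 0.34, in the Ddx41+/+ Trp53+/- mice -0.11, -0.41 and -0.62, and in the double heterozygotes 0.31 and 0.03. The highest value of a gene fell in wild-type mouse 10 for 6 members and mouse 12 for 4. The lowest fell in Ddx41+/+ Trp53+/- mouse 24 for 9 members. Wild-type mouse 11 was among the lowest 3 mice for 9 of the 10. The median within-genotype SD of the members was 0.41 on the log2 scale, against 0.16 for the 7375 tested genes of like level, of which 4.14% exceeded the member median.

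**Figure D2:**
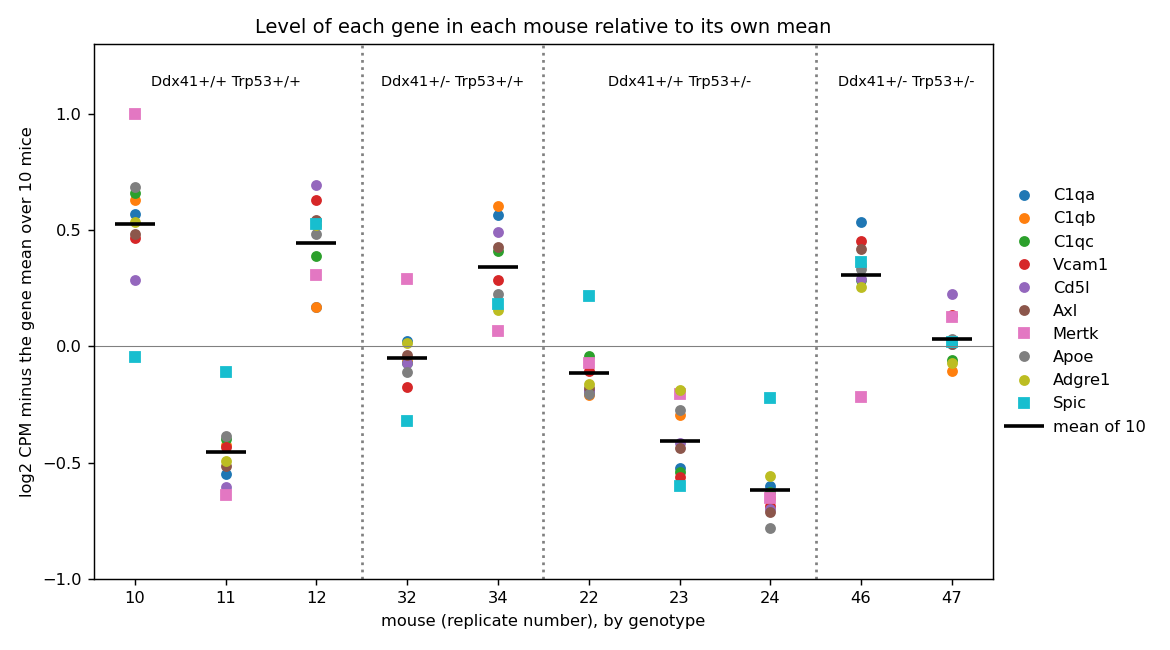
Log2 CPM of each gene minus its mean over the 10 mice (vertical axis) for each mouse (horizontal axis, by genotype), with squares for Spic and Mertk and a black bar for the mean of the 10 genes. The bars run from -0.62 in mouse 24 to 0.53 in mouse 10, and wild-type mouse 11 lies at -0.46.

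Correlations over the 10 mice are given as descriptions, since all points share libraries, scaling and genotype groups. Among the 28 pairs without Spic or Mertk, Pearson's r of log2 CPM was 0.85 to 0.98 and Spearman's rho 0.87 to 1.00. After genotype means were removed the range of r was 0.76 to 0.99. Each pair was also correlated without the 2 mice farthest from the median of its first gene, in the order listed at the start. Those mice differed between pairs, and r was then 0.74 to 0.97. The 8 pairs of Mertk with members other than Spic had an r of 0.68 to 0.84, and 0.36 to 0.70 with mice left out by that rule. The 9 pairs with Spic had an r of 0.19 to 0.78, and 0.24 to 0.84 by that rule. Axl followed the mean of the other 9 members most closely (r = 0.99, rho = 0.99) and Spic least (r = 0.61, rho = 0.59). Wild-type mouse 10 and Ddx41+/+ Trp53+/- mouse 24 lay farthest from the median of the mean profile of the 10 members. Without those 2 mice the lowest was Mertk (r = 0.57), with Spic at 0.74. Spic and Mertk were also the members with the fewest counts, and the part of counting error in their lower r was not tested.

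Genes outside the list with the most similar profile were sought among the other 11836 tested genes by r with the mean profile of the 10 members. The 5 most alike were Itgb5, integrin beta 5 (r = 0.98, rho = 0.99), Fcgrt, the heavy chain of the neonatal Fc receptor (r = 0.97, rho = 0.99), Trf, transferrin (r = 0.96, rho = 0.98), Sdc3, syndecan 3 (r = 0.95, rho = 0.92), and Fcna, ficolin A (r = 0.95, rho = 0.94). Their r without mice 10 and 24 was 0.93 to 0.98, and with genotype means removed 0.96 to 0.99. An r over 0.9 was found for 16 of the 11836 genes and over 0.8 for 75, and the median over all was -0.01. Trf ranged from 42.1 to 111 CPM and Itgb5 from 5.70 to 14.2 CPM.

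A list of 18 further macrophage genes, of which 17 were tested, did not move as 1 block. Siglec1, the sialoadhesin of resident marrow macrophages (r = 0.95), Mrc1, the mannose receptor (0.94), Lgmn, a lysosomal protease (0.94), Cd68, a lysosomal glycoprotein (0.91), and Sirpa, the receptor for CD47 (0.81), had the highest r. Without mice 10 and 24 the r of Sirpa was 0.68 and that of the other 4 was 0.85 to 0.94. For genes shared widely with monocytes the r was lower, at 0.75 for Csf1r, the receptor for macrophage colony-stimulating factor, 0.62 for Fcgr1, 0.60 for Ctss and 0.59 for Mpeg1, and without mice 10 and 24 it was 0.46, 0.32, 0.21 and 0.23. Cd14, the lipopolysaccharide co-receptor, had an r of -0.24. Vsig4, a C3b receptor of tissue macrophages, was at 0.174 to 1.20 CPM, from 3 to 15 counts, with an r of 0.00.

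**Figure D3:**
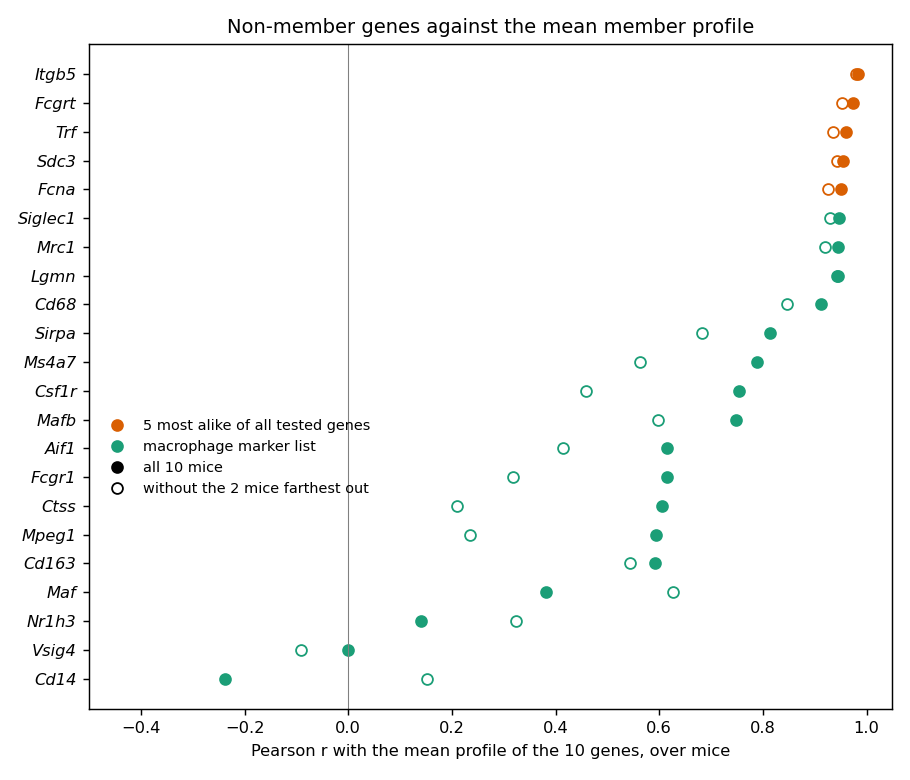
Pearson's r over mice with the mean profile of the 10 members (horizontal axis) for the 5 most alike genes (orange) and the macrophage marker list (green), over all 10 mice (filled) and without mice 10 and 24 (open). Siglec1, Mrc1 and Lgmn lie at 0.94 to 0.95 and Cd14 at -0.24.

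The first comparison concerned Ddx41+/- against Ddx41+/+ mice with Trp53+/+. With edgeR's quasi-likelihood test and Benjamini-Hochberg adjustment over all tested genes, 0 of the 10 members were called (adjusted p under 0.05 and fold change over 1.5), against 0.540% of tested genes. By unadjusted p under 0.05 it was 0 of 10 members against 9.64% of genes, DESeq2 called 0, and the values did not overlap between genotypes for 0 of 10, against 24.9% of genes. Log2 fold changes ran from -0.27 for Apoe to 0.17 for C1qa, with a median of -0.14. The 95% interval for Apoe was -0.75 to 0.22 and for C1qa -0.35 to 0.70, so changes of these sizes were not excluded. The median was 0.07 without wild-type mouse 10, 0.08 without Ddx41+/- mouse 32, -0.35 without wild-type mouse 11, -0.28 without Ddx41+/- mouse 34 and -0.01 without wild-type mouse 12.

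With Trp53+/-, all 10 members had higher means in Ddx41+/- than in Ddx41+/+ mice, but 0 of 10 were called (0.0422% of genes). DESeq2 also called 0. Vcam1 was at 77.7 and 97.0 CPM against 43.9 to 65.7 CPM, a log2 fold change of 0.74 ± 0.24 (SE), with an unadjusted p of 0.006 and an adjusted p of 0.9997 in edgeR. C1qa differed by 0.73 ± 0.25 and Cd5l by 0.69 ± 0.27, at the same adjusted p. At an unadjusted p under 0.05 there were 6 of 10 members (C1qa, C1qc, Vcam1, Cd5l, Axl and Apoe), against 3.75% of genes. Values of the 2 groups did not overlap for 7 of 10 members, against 20.0% of genes. The members not separated were C1qc, Mertk and Spic. The median log2 fold change was 0.56, against -0.01 over all tested genes, and ranged from 0.42 without mouse 24 to 0.74 without mouse 47.

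Trp53+/- against Trp53+/+ mice with Ddx41+/+ gave the largest median difference of the 4 comparisons of genotypes. All 10 members had lower means in Trp53+/- mice, with a median log2 fold change of -0.66, against 0.00 over all tested genes. Apoe had the smallest adjusted p (log2 fold change -0.73 ± 0.20 SE, adjusted p = 0.138 by edgeR). Vcam1 differed by -0.73 ± 0.21 (adjusted p = 0.160 by edgeR) and Axl by -0.68 ± 0.22 (adjusted p = 0.222 by edgeR). By this test 0 of 10 members were called, against 0.912% of genes, and DESeq2 called 0. An unadjusted p under 0.05 was found for 8 of 10 members, all but Mertk and Spic, against 9.44% of genes. The values overlapped for every member, so the count without overlap was 0 of 10 against 14.1% of genes.

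For all members but Spic, that overlap came through wild-type mouse 11 alone. For Apoe, mice 10 and 12 were at 258 and 224 CPM, mouse 11 at 123 CPM and the Trp53+/- mice at 93.4 to 139 CPM. Without mouse 11, 7 members were called (C1qa, C1qc, Vcam1, Cd5l, Axl, Apoe and Adgre1), against 0.914% of the genes tested in that fit, and the median log2 fold change was -0.93. Without wild-type mouse 10 the median was -0.43, and 0 members were called. Nothing in the labels sets mouse 11 apart. Its library had the highest total, 20283930 counts. Lowest of all 10 mice were its summed markers of B cells (49.2 CPM) and of eosinophils, basophils and mast cells (57.1 CPM). So were those of T and NK cells (18.2 CPM) and of stroma and endothelium (8.21 CPM). Its sums of genes for complement (532 CPM) and for uptake of apoptotic cells (2136 CPM) were lowest too. The uptake sum was led by Cd36, Cd47 and Calr, at means of 771, 685 and 440 CPM. Their r with the member profile was -0.23, -0.56 and -0.02. The complement sum was led by C3 and Itgam (means of 161 and 135 CPM, r of 0.15 and 0.29). The macrophage marker sum of mouse 11 (516 CPM) was not the lowest, which was 403 CPM in mouse 24. Its neutrophil, monocyte and dendritic cell, megakaryocyte and erythroid sums were not the lowest either. The part of these lists in the result was not tested.

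In Ddx41+/- mice, no member passed the test between the Trp53 genotypes. By edgeR 0 of 10 were called (0.169% of genes), 0 of 10 had an unadjusted p under 0.05 (5.41%), DESeq2 called 0, and values did not overlap for 0 of 10 (37.3%). Log2 fold changes ran from -0.24 for Mertk to 0.28 for Spic, with a median of 0.02. The interval for Apoe was -0.40 to 0.65. The median was -0.12 without mouse 46, -0.14 without mouse 32, 0.20 without mouse 47 and 0.27 without mouse 34, and each of these groups held 2 mice.

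**Figure D4:**
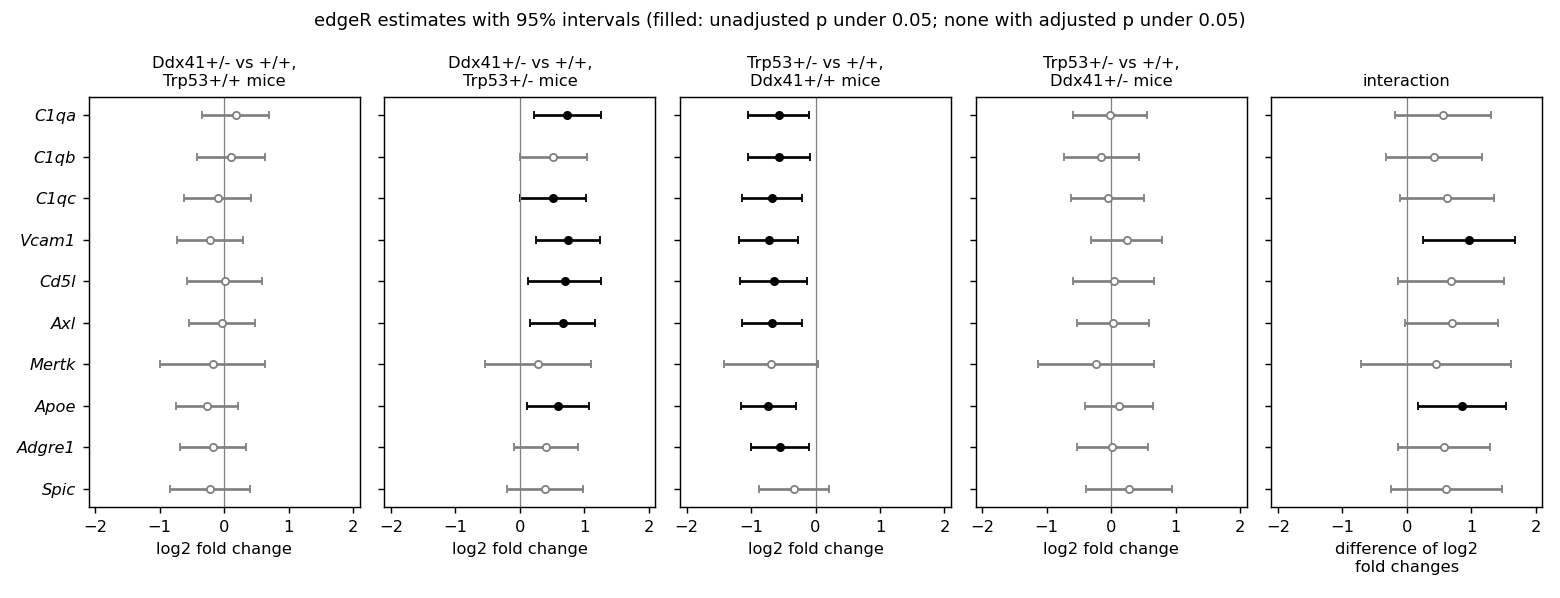
Log2 fold change of each gene (points) with its 95% interval (bars) from edgeR in the 4 comparisons of genotypes, and the interaction. Filled points have an unadjusted p under 0.05, and none has an adjusted p under 0.05. Points lie below 0 for Trp53+/- with Ddx41+/+ (-0.73 to -0.33) and above 0 for Ddx41+/- with Trp53+/- (0.28 to 0.74).

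Whether the Ddx41 difference itself depended on Trp53 was tested as an interaction. The comparisons above share groups, so this test is the one that bears on their contrast. All 10 members had positive estimates, with a median of 0.62 on the log2 scale, but 0 of 10 had an adjusted p under 0.05 in edgeR (0.0675% of genes) and DESeq2 called 0. At an unadjusted p under 0.05 there were 2 of 10 members, Vcam1 (0.97, 95% interval 0.25 to 1.69, adjusted p = 0.788) and Apoe (0.86, 0.18 to 1.54, adjusted p = 0.830), against 5.01% of genes in the edgeR fit.

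Pooled over both genotypes of the other gene, by an additive edgeR model, Ddx41+/- against Ddx41+/+ gave 0 of 10 members called (0.110% of genes) and 1 at an unadjusted p under 0.05, C1qa (log2 fold change 0.46, against 8.98% of genes). DESeq2 called 0, and values did not overlap for 0 of 10 (1.57%). The median was 0.24, falling to 0.09 without mouse 46 and 0.15 without mouse 24 and reaching 0.43 without mouse 32. Trp53+/- against Trp53+/+ gave 0 of 10 members called (0.287% of genes) and 3 at an unadjusted p under 0.05, C1qb, C1qc and Axl (11.2% of genes). DESeq2 called 0, values did not overlap for 0 of 10 (2.01%), and the median of -0.38 was -0.22 without wild-type mouse 10.

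The choice of filter mattered for the calls. Without a filter on low counts, edgeR called 5 members in Ddx41+/- against Ddx41+/+ with Trp53+/- (C1qa, Vcam1, Cd5l, Axl and Apoe, against 0.242% of 16135 genes), 5 in Trp53+/- against Trp53+/+ with Ddx41+/+ (C1qc, Vcam1, Cd5l, Axl and Apoe, against 1.55%) and 3 in the interaction (Vcam1, Axl and Apoe, against 0.663%), with log2 fold changes within 0.01 of those above. In that fit the spread given to a member was that of the trend over genes: the members' quasi-dispersion, a factor that scales the variance in the model, was 0.700 to 0.930, in place of 1.03 to 4.39 with the filter.

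Gene lists around the island were described by counts in the same fits. Of the 17 macrophage genes tested, 16 had higher means in Ddx41+/- than Ddx41+/+ mice with Trp53+/- (median log2 fold change 0.40) and 16 had lower means in Trp53+/- than Trp53+/+ mice with Ddx41+/+ (median -0.36), with 0 called in these directions by edgeR. An unadjusted p under 0.05 was found for 8 genes in the first (3.75% of all genes) and for 9 in the second (9.44% of all genes), Cd14 among the 9. DESeq2 called Siglec1 in the second of these (edgeR log2 fold change -0.75, adjusted p = 0.141). The exception there was Cd14, which rose with Trp53+/- in Ddx41+/+ mice (log2 fold change 1.36, adjusted p = 0.00477 by edgeR) and with Ddx41+/- in Trp53+/+ mice (1.58, adjusted p = 0.00339 by edgeR). DESeq2 called Cd14 in both and in the interaction, where the edgeR estimate was -1.36 (adjusted p = 0.337). Cd14 is also made by neutrophils and monocytes. In both comparisons the fold is taken against the same wild-type mice.

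Of 19 tested genes for uptake of apoptotic cells, 0 were called by edgeR or DESeq2 in any of the 7 comparisons. Over all genes, edgeR called 0.0422% to 0.912%. An unadjusted p under 0.05 was found for 0 to 4 of the 19, against 3.75% to 11.2% of all genes. The 4 were for Trp53+/- with Ddx41+/+ (9.44% of all genes). The bridging ligand Gas6, which links AXL and MERTK to dying cells, was at 1.18 to 4.01 CPM, and Pros1, the other bridging ligand, at 0.844 to 3.06 CPM. Tyro3, the third receptor of the family, did not pass the filter, with 0 to 10 counts. Timd4, a phosphatidylserine receptor, was at 0.309 to 2.80 CPM and Stab2, a scavenger receptor, at 3.50 to 12.4 CPM.

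Of 18 tested complement genes, edgeR called 1 in any comparison, Cd59a, which protects cells from the membrane attack complex, and DESeq2 called 0. Cd59a was higher in Ddx41+/- mice with Trp53+/+ (log2 fold change 0.85, adjusted p = 0.0493 by edgeR), where 0.540% of all genes were called. An unadjusted p under 0.05 was found for 1 to 4 of the 18, the 4 being for Ddx41 over all mice (8.98% of all genes). The proteases that pair with C1q were scarce, with C1ra at 0.100 to 1.52 CPM and C1s1 at 0 to 5 counts, while C3 was at 136 to 200 CPM. Of 15 tested genes of heme and iron recycling and lipid export, edgeR called 0 in any comparison. An unadjusted p under 0.05 was found for 1 to 6 of the 15. The 6 were for Trp53+/- with Ddx41+/+, where 9.44% of all genes had such a p. DESeq2 called Lpl, lipoprotein lipase, for Trp53+/- with Ddx41+/+ (1.36% of all genes) and in the interaction. Hmox1, heme oxygenase 1, was at 74.9 to 171 CPM, and its log2 fold change was -0.55 (adjusted p = 0.333 by edgeR) for Trp53+/- with Ddx41+/+. Slc40a1, the iron exporter ferroportin, was at 117 to 161 CPM with -0.27 (adjusted p = 0.225 by edgeR).

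On the erythroblast side, Itga4 and Itgb1, the subunits of the integrin that binds VCAM1, were at 585 to 715 and 225 to 291 CPM, a range far narrower than the 2.50-fold range of Vcam1. Icam4, an erythroid ligand of macrophage integrins, was at 136 to 169 CPM, and Maea, the erythroblast macrophage protein, at 57.7 to 68.7 CPM. Of these genes and Cd44, 0 of 5 were called in any comparison by edgeR or DESeq2. An unadjusted p under 0.05 was found for 0 to 2 of the 5, the 2 being for Ddx41 over all mice (8.98% of all genes).

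Summed markers of the other cell types and of erythroid cells had an r of -0.14 to 0.35 with the member profile over the 10 mice. Without mice 10 and 24 the r was -0.07 to 0.58, highest for neutrophils (0.58), stroma and endothelium (0.45) and B cells (0.40), and the part of these cells in the members' levels was not tested. Summed neutrophil markers ranged from 5095 to 8720 CPM (1.71-fold, r with the member profile 0.10), those of monocytes and dendritic cells from 293 to 458 CPM (r = 0.21), and those of T and NK cells from 18.2 to 35.0 CPM (r = -0.13). In these lists edgeR called 0 genes in any comparison. For Trp53+/- with Ddx41+/+, DESeq2 called Siglech and Ccr2 of the second list and Il7r of the third (1.36% of all genes). It also called Il7r for Trp53 over all mice. B cell markers ranged from 49.2 to 239 CPM (4.86-fold, r = 0.00), and were lowest in the 3 wild-type mice, at 49.2 to 106 CPM. In Trp53+/- against Trp53+/+ mice with Ddx41+/+, 6 of 12 B cell genes rose by edgeR (0.912% of all genes called), Vpreb3, Ebf1, Blk, Ms4a1 and Cd79a with the largest changes, the opposite sign to the members, and DESeq2 called 9 (1.36% of all genes). In Ddx41+/- against Ddx41+/+ mice with Trp53+/+, which shares the wild-type mice, all 12 had higher means (median log2 fold change 1.03), and Ebf1 and Cd79a rose by edgeR (0.540% of all genes called) while DESeq2 called 6 (1.11%). Eosinophil, basophil and mast cell markers ranged from 57.1 to 242 CPM (r = 0.33), highest in mouse 10 and lowest in mouse 11. Among them Cpa3, mast cell carboxypeptidase, rose in Trp53+/- against Trp53+/+ mice with Ddx41+/+ (log2 fold change 1.36, adjusted p = 0.0382 by edgeR, 0.912% of all genes called). Of the 6 genes, 4 had higher and 2 lower means there, and the mean sum was 127 CPM against 148 CPM. Cpa3 was also called by edgeR for Trp53 over all mice (0.287% of all genes). DESeq2 called Cpa3 in both, and for Trp53 with Ddx41+/-. It also called Ms4a2 for Trp53 over all mice. Megakaryocyte markers ranged 1.25-fold (r = 0.04), stromal and endothelial markers were low at 8.21 to 20.3 CPM (r = 0.35), and erythroid markers ranged 1.14-fold (r = -0.14), against 2.42-fold for the members.

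**Figure D5:**
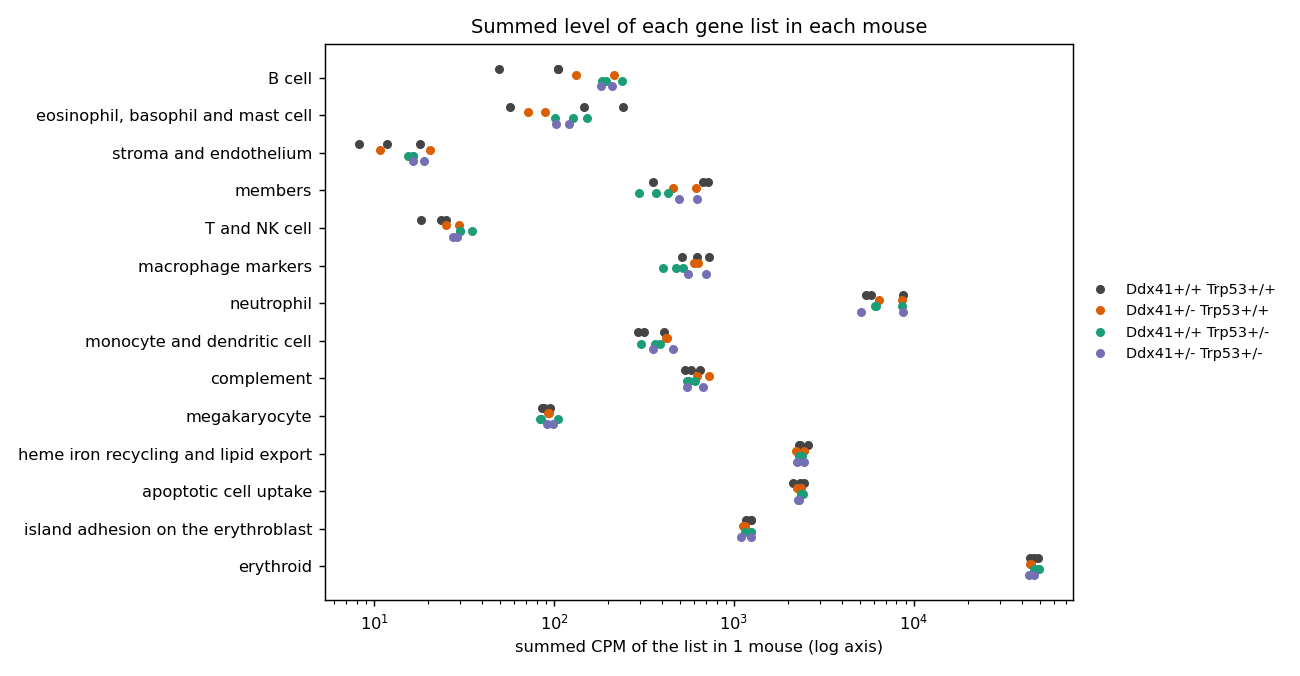
Summed CPM of each gene list (horizontal log axis) in each mouse (points, colored by genotype), with lists ordered by the ratio of the highest to the lowest mouse. B cell markers had the widest range (4.86-fold) and erythroid markers the narrowest (1.14-fold), with the members at 2.42-fold.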

How the data were processed

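The authors deposited 1 table of raw read counts per gene symbol for the 10 libraries, without normalization. Per the submitters' processing notes the tools were FastQC 0.11.7, HISAT2 2.0.5 and featureCounts 1.5.2 on mm10. The paper and the labels name different TruSeq kits, and the strand setting and the treatment of multi-mapped reads are not given in the sources used here. Mice 35 and 45, named in the deposited table's title as removed, were not analysed here. The labels give no batch.

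Counts were tested in edgeR 4.0.16 (R 4.3.3) with TMM scaling, a genotype-aware filter on low counts and the quasi-likelihood F-test, two-sided, with 1 mean per genotype over all 10 mice, or an additive model for the pooled comparisons. Adjustment was by Benjamini-Hochberg over 11846 genes, and a gene was called at an adjusted p under 0.05 and a fold change over 1.5 (for the interaction, adjusted p alone). Log2 CPM used a prior count of 2, and the SE is the absolute log2 fold change over the square root of F. Mice are the replicates, 2 or 3 per genotype, and their number limits the precision. Library totals were 7866648 to 20283930 counts. The procedure was tested on simulated data.

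The members and lists were chosen with earlier results of these data known. All members are named, called list genes are named up to 5 per list by size of change, and the 5 non-members most alike are named by Pearson's r. Other list genes were named after their values were seen, as examples. Positions and lengths came from GENCODE M21 on GRCm38, and promoter windows from RefSeq. Alternatives were DESeq2 1.42.0, its size factors within edgeR, no filter, a minimum of 10 counts per library, a fit of the compared genotypes alone, and each mouse left out. Figures were drawn with matplotlib 3.10.9.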

Additional observations from a re-analysis of the deposited data

How the results depend on the processing

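No paired analysis was possible because the genotypes share no replicate numbers. With DESeq2's size factors within edgeR, with at least 10 counts in every library and with only the genotypes compared, 0 members were called in every comparison these settings gave, as with DESeq2. Without a filter 5 members were called for Ddx41 with Trp53+/-, 5 for Trp53 with Ddx41+/+ and 3 for the interaction, where the fit gave all genes the trend's spread. With 1 mouse left out, the number of members called for Trp53 with Ddx41+/+ was 0 to 7 (7 without wild-type mouse 11), and 0 in the other comparisons. Over all genes, the count called with 1 mouse left out was 13 to 103 for Ddx41 with Trp53+/+ (64 with all mice), 1 to 10 for Ddx41 with Trp53+/- (5 with all mice), 35 to 115 for Trp53 with Ddx41+/+ (108 with all mice), 13 to 24 for Trp53 with Ddx41+/- (20 with all mice), 2 to 42 for Ddx41 over all mice (13 with all mice), 20 to 79 for Trp53 over all mice (34 with all mice), 8 to 12 for the interaction (8 with all mice). DESeq2 called 131 genes for Ddx41 with Trp53+/+, 37 for Trp53 with Ddx41+/-, 40 for Ddx41 over all mice, 93 for Trp53 over all mice and 29 for the interaction. No filter gave 243, 39, 250, 67, 94, 181 and 107 genes in the order of comparisons above, at least 10 counts gave 2 for Ddx41 with Trp53+/- and 8 for Ddx41 over all mice, and only the genotypes compared gave 66 for Trp53 with Ddx41+/+ and 37 for Trp53 with Ddx41+/-. No setting other than leaving out a mouse turned the sign of a member's log2 fold change. The following ranges with 1 mouse left out crossed 0. For Ddx41+/- against Ddx41+/+ with Trp53+/+ these were C1qa -0.11 to 0.46, C1qb -0.25 to 0.42, C1qc -0.35 to 0.14, Cd5l -0.28 to 0.32, Axl -0.31 to 0.18, Mertk -0.51 to 0.32 and Spic -0.47 to 0.034. For Trp53+/- against Trp53+/+ with Ddx41+/- these were C1qa -0.30 to 0.28, C1qb -0.46 to 0.21, C1qc -0.28 to 0.20, Cd5l -0.23 to 0.33, Axl -0.20 to 0.27, Apoe -0.034 to 0.30 and Adgre1 -0.16 to 0.18. For Ddx41 over all mice these were Mertk -0.087 to 0.29, Adgre1 -0.015 to 0.22 and Spic -0.048 to 0.27. For Trp53 over all mice it was Spic -0.23 to 0.065. For the interaction it was Mertk -0.039 to 0.80. For Ddx41 with Trp53+/- and Trp53 with Ddx41+/+ no member changed sign. Apart from the spread under no filter, the cause of these differences was not tested. Depth limits Mertk and Spic most, at 33 to 154 and 56 to 139 counts.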
